A study of Mus musculus with 37 samples.

Results

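Translation factors are the proteins that bring a ribosome onto an mRNA, move it along and release it, and poly(A)-binding proteins hold the mRNA tail and join it to the factors at the cap. The group described here holds 54 mouse genes, out of 29294 gene symbols listed in the 4 RNA-seq tables of the series, and was listed by gene symbol, at a time when earlier results of these data were known. It covers the initiation factors eIF1 to eIF6 with the eIF4E-binding proteins, the elongation and termination factors, and 4 genes of poly(A) and CPE binding. All 54 were listed in each of the 4 tables. Of these, 3 are oocyte-type genes (Eif4e1b, Pabpc1l and Cpeb1) and 51 are general factors.

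In a cell, eIF4E binds the mRNA cap and eIF4G bridges it to the helicase eIF4A, to eIF3 on the small ribosomal subunit and to the poly(A)-binding protein on the tail. eIF2 carries the initiator tRNA, eIF2B recharges eIF2 with GTP, and eIF1 guards the choice of the start codon. A fully grown oocyte is transcriptionally quiet, so its protein synthesis depends on stored mRNA: CPEB1 holds many stored mRNAs silent until meiosis, while eIF4E1B and PABPC1L (also called ePAB) are relatives of eIF4E and PABPC1 found mainly in oocytes and early embryos.

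The study removed subunits of the Hira complex, the chaperone of histone H3.3, from mouse oocytes on a C57BL/6 background. The Zp3-Cre transgene, active in growing oocytes, deleted floxed Hira (the ZH line) or floxed Cabin1 (the CabZ line), and heterozygous mice (ZH Het, CabZ Het) were the controls of the mutants (ZH KO, CabZ KO). RNA-seq was given for fully grown germinal vesicle (GV) oocytes of both lines and for CabZ 2-cell embryos, with 4 libraries per group, and for 2-cell parthenotes from wild-type GV oocytes that had received GFP RNA (4 libraries) or Zscan4d RNA (Zscan4 OE, 3 libraries), been matured in vitro and then been activated without sperm. Both GV groups of a line, and both groups of 2-cell embryos, thus came from mice carrying the same Cre, and both groups of parthenotes were injected. Oocytes were taken after PMSG treatment, animal ages and the way the CabZ 2-cell embryos were obtained were not given in the labels, and the methods state pools of 10 oocytes per library whereas the labels speak of individual cells. ATAC-seq peak lists covered GV oocytes of the CabZ line, with 3 libraries of about 100 oocytes for each genotype.

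The RNA-seq libraries held an estimated 5819242 to 21870834 reads on listed genes. In the CabZ 2-cell table the Het libraries held 7947330 to 8239761 reads and the KO libraries 5819242 to 6330215, so depth moved with genotype there. It also did so in the CabZ GV table, with 10706012 to 12469458 reads in Het and 9115892 to 10010598 in KO libraries. All 12 markers of the oocyte were above 1 FPKM in every GV library, while the 12 listed markers of granulosa, cumulus, stroma and blood cells summed to at most 2.44 FPKM in the ZH GV libraries, and the 7 listed in the CabZ GV table to at most 1.32 FPKM. Cabin1 was lower in each CabZ KO library than in any CabZ Het library, both in GV oocytes (0.0125 to 0.0482 against 0.0891 to 0.159 FPKM) and in 2-cell embryos (0.0640 to 0.181 against 0.229 to 0.455 FPKM). Hira was near 0 in both ZH groups (0.0011 to 0.0117 FPKM in Het and 0 to 0.0087 in KO), so its RNA did not check the labels. Zscan4d was not higher in the libraries labelled Zscan4 OE (79.4 ± 7.94 FPKM, SD, n = 3) than in the GFP libraries (117 ± 34.4, n = 4).

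FPKM here means reads per kilobase of the whole gene span, introns included, scaled to the reads of the library, so levels were compared between groups for one gene and not between genes. Groups were compared with limma on log2(FPKM + 1), in genes whose mean reached 1 FPKM, and "higher" and "lower" mean an adjusted p under 0.05. Differences are on the log2(FPKM + 1) scale, which understates the change of low genes, and are given ± SE with the group means ± SD. The libraries were bulk pools, so fewer cells and less RNA per cell cannot be told apart.

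Promoter sequence was available for 41 of the 54 members. The windows are shown for 5 of them because these went opposite ways in CabZ KO 2-cell embryos: Eif1 and Eif1b, closely related genes whose products guard start-codon choice, were higher, whereas Eif3g and Eif3m, subunits of the eIF3 scaffold, and Eif4e2, a cap-binding repressor, were lower. Each sequence runs 5′ to 3′ on the gene's own strand from 250 bases before to 50 bases after the RefSeq start (GRCm38.p6). The Eif1 window is chr11:100319699-100319998 (plus strand), that of Eif1b chr9:120492356-120492655 (plus), that of Eif3g chr9:20898541-20898840 (minus), that of Eif3m chr2:105016978-105017277 (minus) and that of Eif4e2 chr1:87213661-87213960 (plus). Capitals mark CGGAAG and CACGTG, each searched on both strands, and TATAA, searched on the sense strand; none of the 3 motifs contains another.
Eif1: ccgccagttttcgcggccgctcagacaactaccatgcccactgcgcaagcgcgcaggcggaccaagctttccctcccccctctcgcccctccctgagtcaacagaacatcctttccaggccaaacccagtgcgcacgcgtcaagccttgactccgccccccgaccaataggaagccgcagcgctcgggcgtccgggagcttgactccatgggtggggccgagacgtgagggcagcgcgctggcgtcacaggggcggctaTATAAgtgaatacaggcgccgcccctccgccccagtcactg
Eif1b: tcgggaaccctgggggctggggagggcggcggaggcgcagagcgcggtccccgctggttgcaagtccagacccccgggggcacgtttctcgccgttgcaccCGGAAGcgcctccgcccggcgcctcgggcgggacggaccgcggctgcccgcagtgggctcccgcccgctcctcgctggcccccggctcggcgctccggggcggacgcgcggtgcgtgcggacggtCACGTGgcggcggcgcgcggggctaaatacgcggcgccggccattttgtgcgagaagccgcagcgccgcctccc
Eif3g: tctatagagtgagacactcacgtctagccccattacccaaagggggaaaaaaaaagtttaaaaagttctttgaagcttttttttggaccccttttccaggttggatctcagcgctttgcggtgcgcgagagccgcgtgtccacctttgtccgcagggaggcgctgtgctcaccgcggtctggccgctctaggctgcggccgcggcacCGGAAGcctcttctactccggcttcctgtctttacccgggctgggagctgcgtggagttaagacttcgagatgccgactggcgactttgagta
Eif3m: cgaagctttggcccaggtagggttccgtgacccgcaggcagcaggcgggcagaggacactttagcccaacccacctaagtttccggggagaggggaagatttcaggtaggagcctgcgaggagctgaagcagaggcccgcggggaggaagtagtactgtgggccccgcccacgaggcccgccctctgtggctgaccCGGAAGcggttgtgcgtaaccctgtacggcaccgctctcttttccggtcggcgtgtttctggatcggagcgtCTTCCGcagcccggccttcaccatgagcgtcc
Eif4e2: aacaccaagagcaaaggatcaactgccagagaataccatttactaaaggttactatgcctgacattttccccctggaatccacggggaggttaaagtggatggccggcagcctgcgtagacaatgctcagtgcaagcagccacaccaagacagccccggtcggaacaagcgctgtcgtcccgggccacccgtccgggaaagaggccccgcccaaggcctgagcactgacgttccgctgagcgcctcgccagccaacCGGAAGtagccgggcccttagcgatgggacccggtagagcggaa

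Among these 5 windows, TATAA was present in that of Eif1, CGGAAG in those of Eif1b, Eif3g, Eif3m and Eif4e2, and CACGTG in that of Eif1b. Over the 41 members, CGGAAG, the core of ETS-family sites, was found in 21 windows (51.2%, against 18.8% of 27025 genes), and CACGTG, the E-box bound by MYC and USF, in 12 windows (29.3%, against 8.1%). TATAA was found in 8 (19.5%), and in 5412 of the 27025 genes. The 27025 genes were not matched to the members for expression or base composition, and the part of these in the shares was not tested. A match describes the letters of the window and not a bound site.

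**Figure D1:**
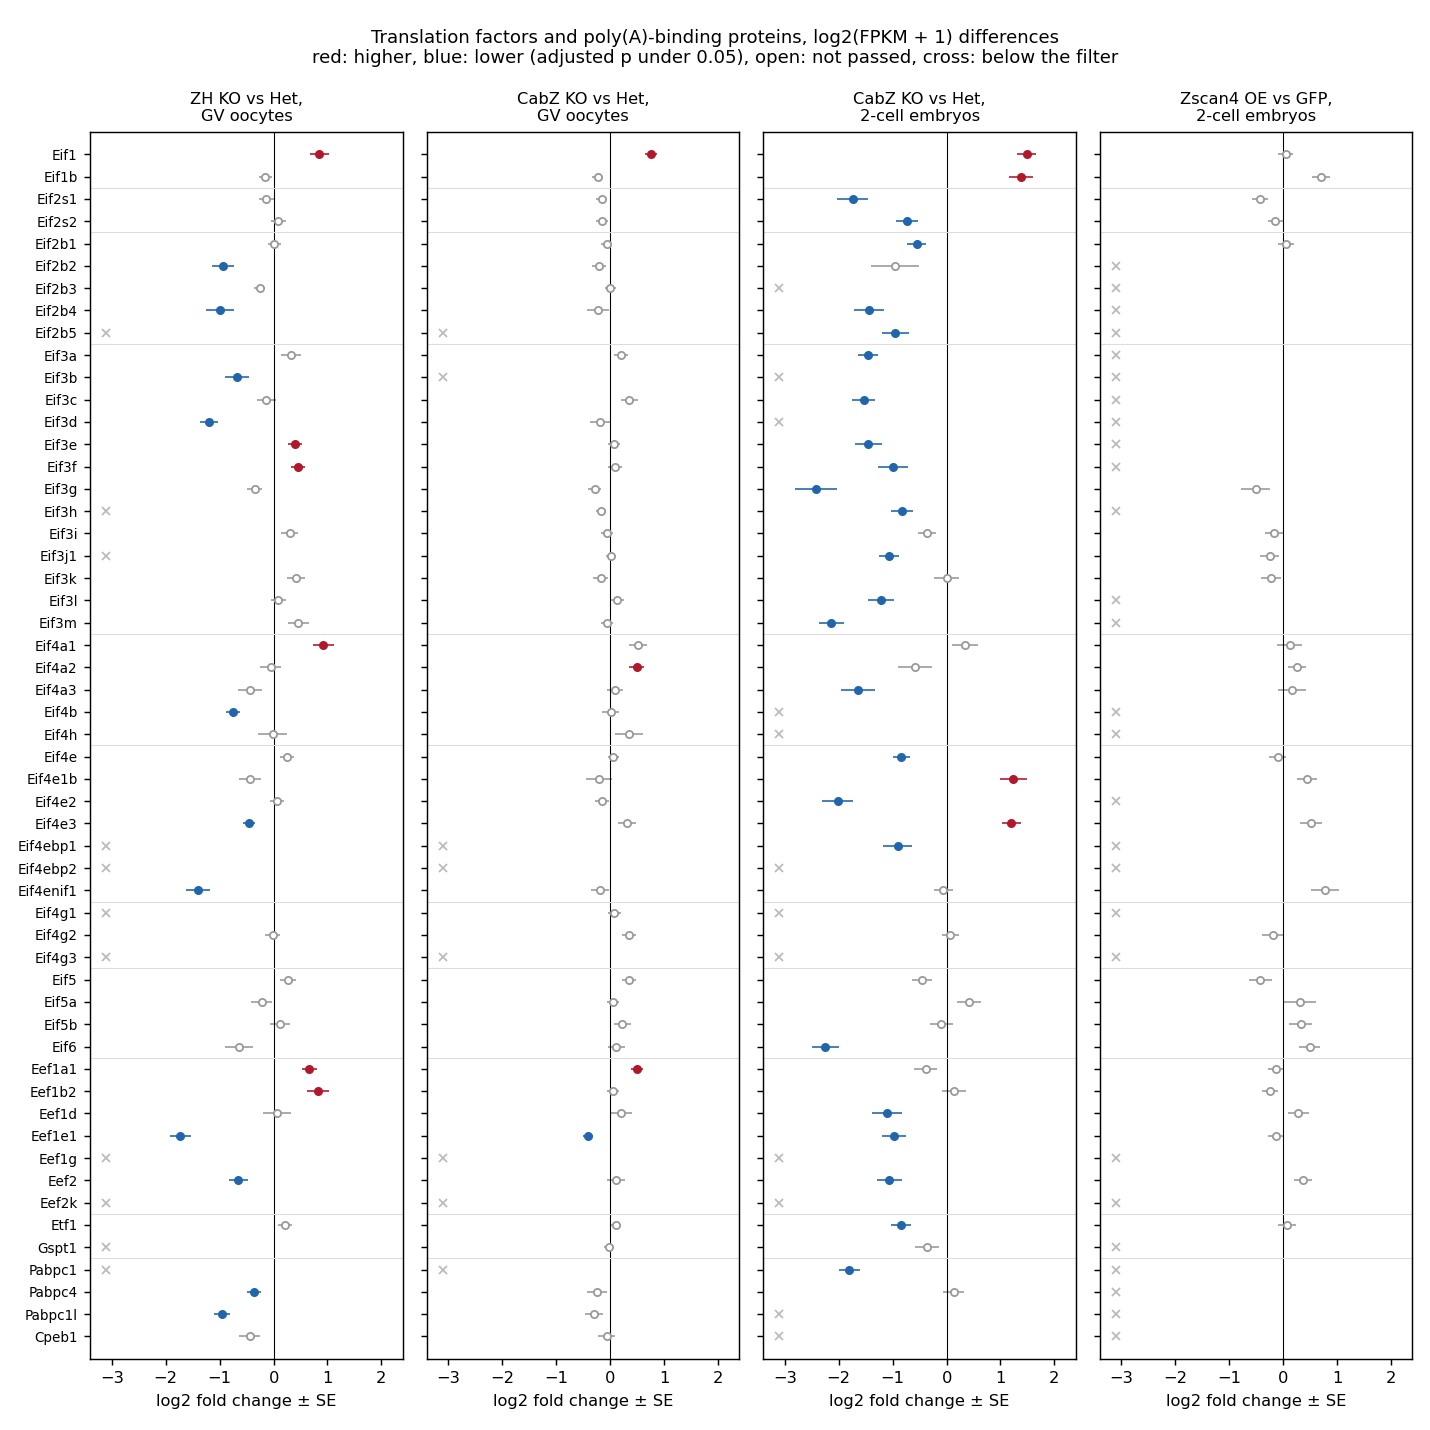
Difference in log2(FPKM + 1) (x axis) of each of the 54 members (y axis, by role) in the 4 comparisons, with bars of ± SE and red for higher, blue for lower, open points for members that did not pass and crosses for members below the 1 FPKM filter. Most filled points in the CabZ 2-cell panel are blue (24 lower, 4 higher), the ZH GV panel holds both colours (6 higher, 11 lower), the CabZ GV panel has 4 filled points and the Zscan4 OE panel has none.

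The largest changes were in 2-cell embryos from CabZ oocytes. Of 42 members tested there, 4 were higher in CabZ KO embryos (all genes, 25.2%), 24 were lower (all genes, 30.9%) and 14 did not pass. A change of at least 2-fold on the log2(FPKM + 1) scale was met by 19 of the 42 (all genes, 37.4%). The lower members made up 57.1% of those tested, and the members' median difference was −0.84 against −0.11 over all genes tested. Of the 24 lower members, Eif2b5, Eif3f, Eif3h and Eif3l had passed the filter through the Het embryos alone. The summed FPKM of the 12 oocyte markers also differed in these libraries, with 151 to 234 in Het and 464 to 999 in KO embryos and 10 to 12 of them above 1 FPKM. The share of reads on mitochondrial genes differed as well, at 8.99 to 12.9% in Het and 2.48 to 5.09% in KO embryos. The 8 markers of the 2-cell embryo (382 to 888 FPKM in Het, 499 to 1266 in KO) overlapped between the groups. So did the summed FPKM of the 12 listed markers of granulosa, cumulus, stroma and blood cells (2.29 to 3.62 against 1.66 to 2.43). As a share of reads, the latter stood at 0.00286 to 0.00388% in Het and 0.00545 to 0.00797% in KO embryos, without overlap. The part of depth, of the markers and of the mitochondrial share in the members' differences was not tested.

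The counts depended on the scaling of the libraries. When libraries were scaled to the median gene, the median of all genes became 0.13, that of the members −0.60, and 5 of 42 members were higher (all genes, 32.0%) and 22 lower (all genes, 25.2%). On the values as deposited, which divide by gene length a second time, the median of all genes was 0.47 and that of the members 0.003, and of 25 tested 6 were higher (all genes, 32.1%) and 6 lower (all genes, 11.7%). On that scale Eif4e (−0.18, limma adjusted p = 0.455) and Eef2 (−0.50, adjusted p = 0.119) did not pass.

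Start-codon selection held the strongest rise. Eif1 was at 621.6, 539.2, 657.4 and 463.3 FPKM in the CabZ Het 2-cell libraries and at 1509, 1479, 1500.3 and 1879 in the KO libraries. Each KO library was thus above every Het library, and the difference was 1.48 ± 0.18 (limma adjusted p = 0.000312, 2.80-fold). Eif1b was at 21.3, 24.2, 19.6 and 29.3 FPKM in Het and at 64.7, 48.2, 54.6 and 89.2 in KO embryos, again without overlap (1.38 ± 0.23, adjusted p = 0.00105, 2.61-fold). Eif1 has 3 pseudogenes that carry its name, and how reads shared between copies were counted was not stated, so its level is uncertain in every table.

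The ternary complex and its exchange factor went the other way. Both tested eIF2 subunits were lower: Eif2s1, the alpha subunit that stress kinases phosphorylate, stood at 23.5 to 35.4 FPKM in Het and at 4.62 to 13.4 in KO embryos (−1.74 ± 0.29, adjusted p = 0.00108), and Eif2s2, the beta subunit, differed by −0.73. Of the 4 eIF2B subunits tested, 3 were lower (all genes, 30.9%) and none was higher (all genes, 25.2%). Eif2b4 showed the largest difference (−1.44 ± 0.28, from 7.38 ± 3.16 to 1.92 ± 0.22 FPKM). Eif2b1 lost its call in 4 of the 8 fits that left out 1 library (limma adjusted p of 0.0507 to 0.0592). Eif2b5 had passed the filter through the Het embryos alone.

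eIF3, the large scaffold that holds the small ribosomal subunit, was the role with the most lower members. Of 11 tested, 9 were lower (all genes, 30.9%) and none was higher (all genes, 25.2%), and the median of the 11 was −1.22. Eif3g was at 16.0, 39.3, 38.2 and 25.7 FPKM in the Het libraries and at 8.41, 2.09, 5.40 and 3.62 in the KO libraries. The groups did not overlap, and the difference of −2.43 ± 0.39 (limma adjusted p = 0.00088, 5.37-fold lower) was the largest of any member in this comparison. Eif3m, another subunit, was at 9.29, 14.6, 11.9 and 11.1 FPKM in Het and at 2.00, 2.27, 2.45 and 0.959 in KO embryos (−2.14 ± 0.23, adjusted p = 0.000217). The other lower subunits were Eif3c (−1.54), Eif3a (−1.45), Eif3e (−1.45), Eif3l (−1.22), Eif3j1 (−1.07), Eif3f (−0.99) and Eif3h (−0.83). Among these, Eif3l, Eif3f and Eif3h had passed the filter through the Het embryos alone, which favours a lower call. Eif3j1 has a near-identical copy, Eif3j2, and shares bases with Spg11, and Eif3m with Ccdc73, so reads of these genes could be split between partners.

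The cap-binding members were divided. Eif4e1b, the oocyte-type cap-binding protein, rose from 5.95, 3.89, 4.21 and 5.33 FPKM in Het to 9.17, 10.4, 19.0 and 14.0 in KO embryos (1.24 ± 0.24, limma adjusted p = 0.0024, 2.36-fold). Eif4e3, an eIF4E relative, rose from 1.12 ± 0.36 to 3.83 ± 0.40 FPKM (1.20 ± 0.18, adjusted p = 0.000683); it overlaps Gm20696 in the annotation. By contrast Eif4e itself fell from 43.2, 51.2, 51.9 and 46.7 FPKM to 27.1, 23.3, 29.0 and 26.7 (−0.84 ± 0.16, adjusted p = 0.00196). None of these 3 genes had overlapping groups. Eif4e2, which binds the cap without recruiting eIF4G, was lower by a larger amount (−2.02 ± 0.29, from 9.52 ± 3.67 to 1.53 ± 0.60 FPKM), and Eif4ebp1, the eIF4E inhibitor controlled by mTOR, was lower with overlapping libraries (−0.91 ± 0.27, adjusted p = 0.0182, and 0.0526 without CabZ Het replicate 2). Among the helicase members Eif4a3, a part of the exon junction complex, was lower (−1.64 ± 0.31), whereas Eif4a1 did not pass (0.34, 95% interval −0.19 to 0.88).

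Eif6, which keeps the large ribosomal subunit from joining too early, fell from 42.9 ± 9.96 to 8.25 ± 2.34 FPKM (−2.25 ± 0.24, limma adjusted p = 0.000223), and the other 3 members of its class, Eif5, Eif5a and Eif5b, did not pass. Of the 5 elongation members tested, 3 were lower (all genes, 30.9%). They were Eef1d, a subunit of the exchange factor of eEF1A (−1.11 ± 0.28), Eef2, which drives translocation (−1.06 ± 0.23), and Eef1e1, a part of the tRNA synthetase complex (−0.98 ± 0.23). The release factor Etf1 was lower too (−0.85 ± 0.19).

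Pabpc1, the general cytoplasmic poly(A)-binding protein, fell from 6.41, 8.03, 6.75 and 7.19 FPKM in Het to 2.11, 0.957, 1.26 and 1.09 in KO embryos (−1.80 ± 0.19, limma adjusted p = 0.000217, 3.49-fold lower). Its oocyte-type relative Pabpc1l and the CPE-binding Cpeb1 were below the filter in 2-cell embryos. Pabpc1l had 4 to 15 reads in Het and 3 to 37 in KO libraries, which was too few to compare. Cpeb1 had 72 to 105 reads in Het and 99 to 146 in KO libraries, or 0.083 to 0.122 against 0.144 to 0.215 FPKM, and without the filter it passed (limma adjusted p = 0.0392).

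**Figure D2:**
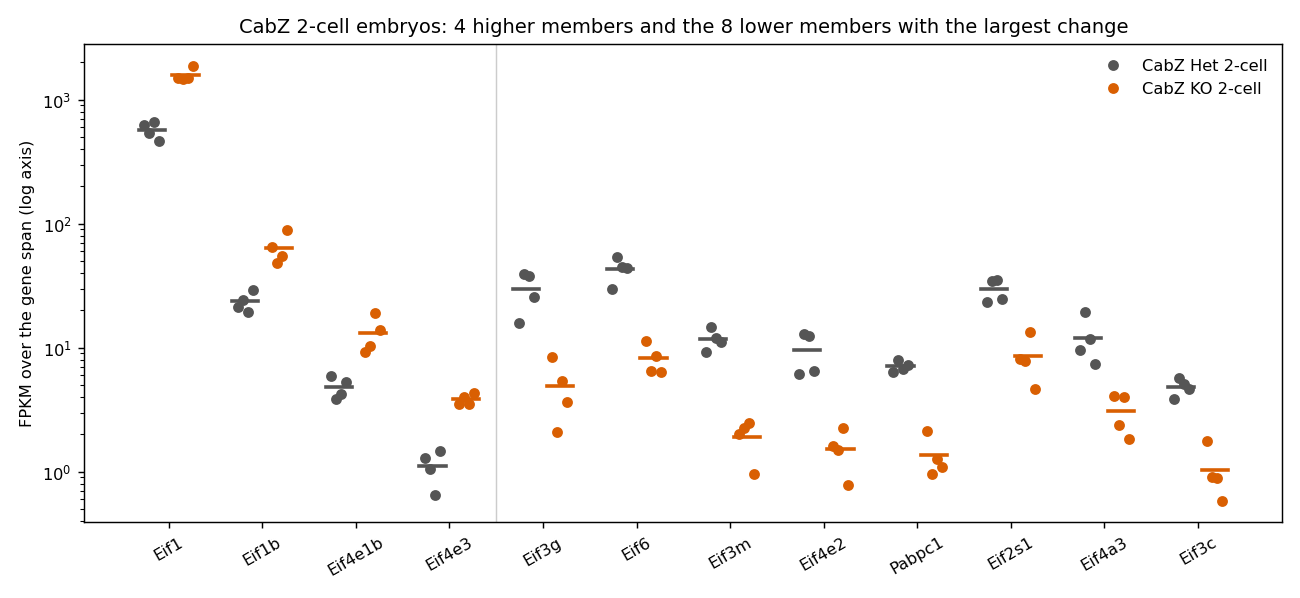
FPKM over the gene span on a log axis in each CabZ 2-cell library (points; grey, 4 Het; orange, 4 KO) with the group mean as a line, for the 4 higher members on the left and the 8 lower members with the largest difference on the right. In none of the 12 genes do the Het and KO points overlap. The genes were chosen by their differences in these same libraries, which favours a lack of overlap, and genes without overlap were not counted over all genes.

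Set against their general counterparts, the oocyte-type genes stood higher in the KO embryos. The log2 ratio of Eif4e1b to Eif4e, each with 1 FPKM added, was −3.41 to −2.67 in Het and −1.47 to −0.58 in KO embryos, a difference of 2.08 (exact permutation test, two-sided, p = 0.0286, the smallest that 4 against 4 libraries can give). The ratio of Pabpc1l to Pabpc1 was −3.15 to −2.85 in Het and −1.50 to −0.74 in KO embryos, a difference of 1.90 (exact p = 0.0286), which rested on Pabpc1 since Pabpc1l was close to 0. With Benjamini-Hochberg adjustment over the 8 ratio tests of the 4 tables, both came to p = 0.0762 (exact permutation test) and did not pass. With so few libraries a ratio could pass only if several of the 8 tests were near their smallest p. The adjusted values therefore cannot decide whether a ratio differs.

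In GV oocytes the same ratios went the opposite way or did not separate. In ZH oocytes Pabpc1l to Pabpc1 was 0.96 to 1.61 in Het and −0.34 to 0.26 in KO (difference −1.31, exact permutation p = 0.0286, adjusted 0.0762), while Eif4e1b to Eif4e differed by −0.69 with overlapping groups (exact p = 0.114). In CabZ GV oocytes the differences were −0.45 (exact permutation p = 0.0571) and −0.26 (exact p = 0.4), and in the parthenotes 0.24 (exact p = 0.571) and 0.55 (exact p = 0.114, where the smallest possible was 0.0571). Differences between the tables were not tested.

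**Figure D3:**
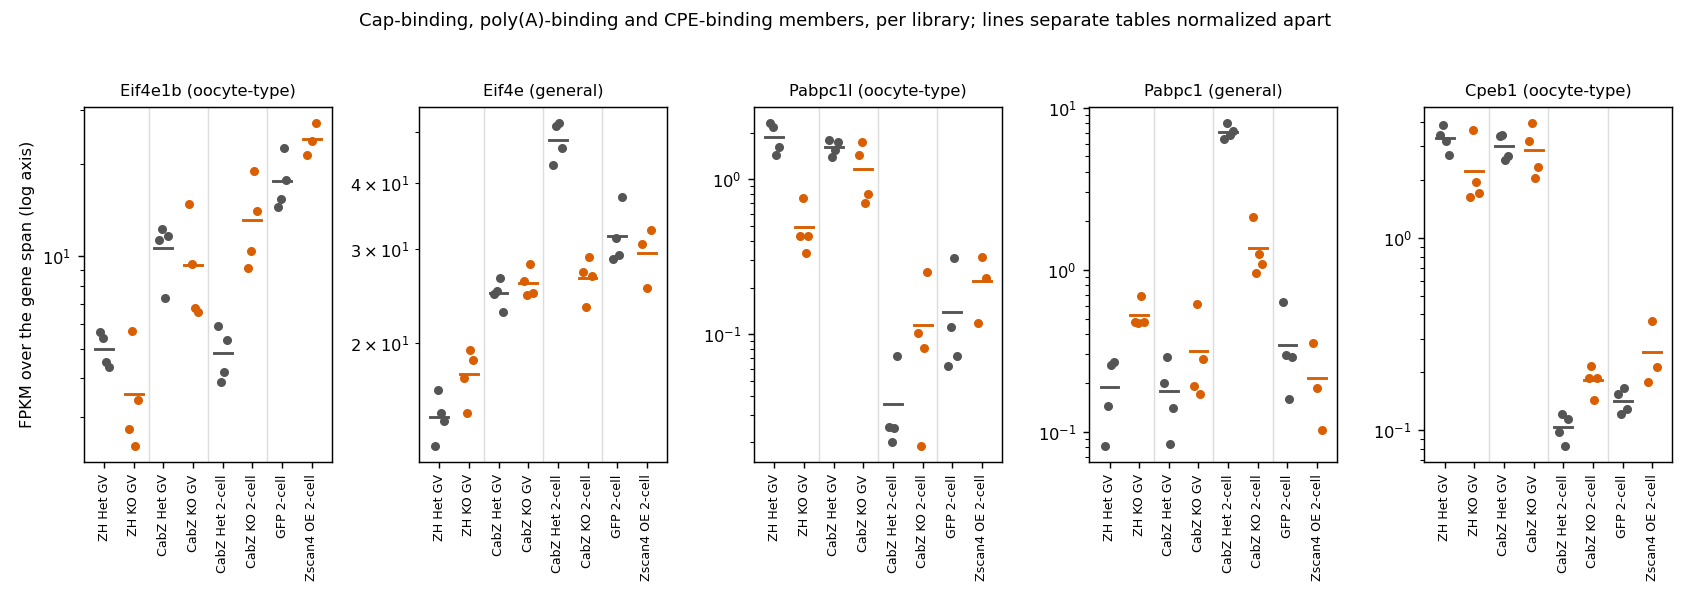
FPKM over the gene span on a log axis in every RNA-seq library for Eif4e1b, Eif4e, Pabpc1l, Pabpc1 and Cpeb1, with vertical lines between tables that were normalised apart. Eif4e1b points of CabZ KO 2-cell embryos (9.17 to 19.0) lie above those of CabZ Het (3.89 to 5.95), Pabpc1 points lie below (0.957 to 2.11 against 6.41 to 8.03), and Pabpc1l in ZH KO oocytes (0.336 to 0.760) lies below ZH Het (1.45 to 2.31).

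The levels in GV oocytes and 2-cell embryos of the CabZ line came from tables normalised apart, so they are given side by side, as mean reads per kilobase of exon scaled to the reads of the library (exon RPKM), with no test. Of the 24 members that were lower in KO 2-cell embryos, 16 had a greater level in Het 2-cell embryos than in Het GV oocytes and 8 a smaller one. Of the 14 that did not pass, 8 had a greater level and 6 a smaller one, and all genes were not counted. Members were called lower or higher with these same Het 2-cell libraries. A great Het 2-cell level therefore favours a lower call and a small one a higher call. Pabpc1 stood at 0.382 in Het GV oocytes, at 15.2 in Het 2-cell embryos and at 2.90 in KO 2-cell embryos. Eif4ebp1 stood at 1.15, 74.9 and 35.2 in the same order, and Eif2s1 at 57.1, 150.5 and 43.2. Over the 24 genes the KO 2-cell level lay between those of Het GV oocytes and Het 2-cell embryos in 6, among them Pabpc1 and Eif4ebp1, and below that of Het GV oocytes in 18, among them Eif2s1. The 18 included the 8 genes that already had a smaller level in Het 2-cell embryos than in oocytes, such as Eif3g (132, 64.2 and 10.5).

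Of the 4 higher members, Eif1b (345, 65.0 and 177), Eif4e3 (70.4, 18.5 and 63.4) and Eif4e1b (21.0, 9.59 and 26.0) had a smaller level in Het 2-cell embryos than in Het GV oocytes and a greater one again in KO 2-cell embryos. Eif1, in contrast, went from 300.0 to 601 and 1678. Pabpc1l (14.9, 0.328 and 1.05) and Cpeb1 (77.7, 2.70 and 4.74) were at their highest in oocytes.

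**Figure D4:**
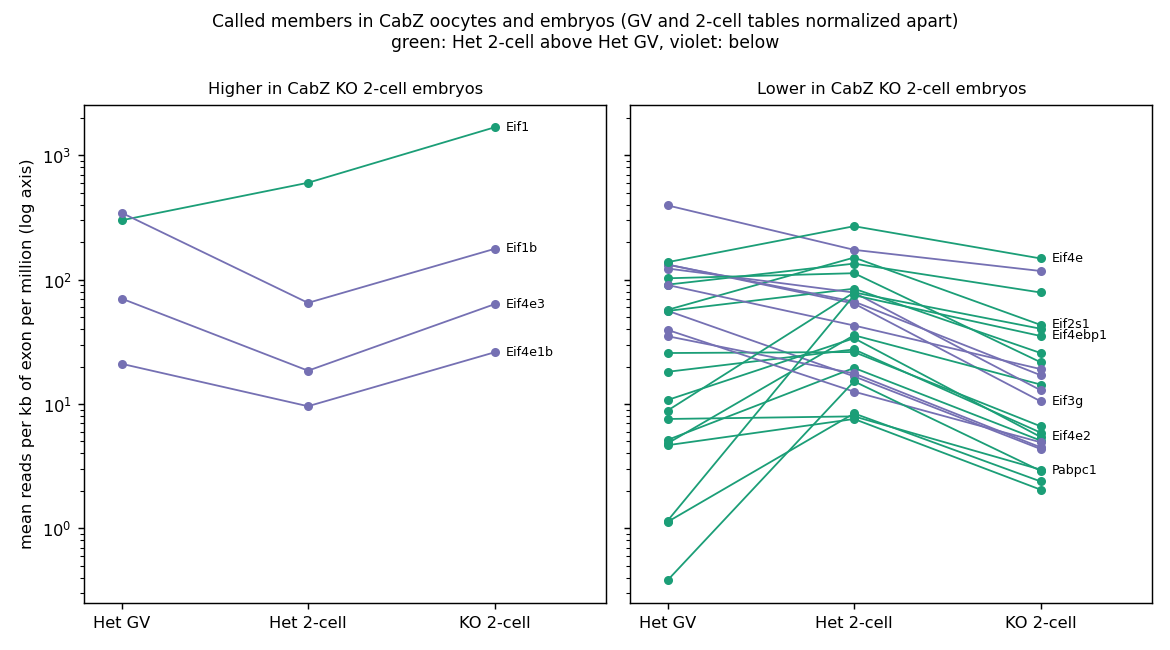
Mean exon RPKM on a log axis in CabZ Het GV oocytes, Het 2-cell embryos and KO 2-cell embryos, for the 4 members higher (left) and the 24 lower (right) in KO 2-cell embryos; each line is 1 gene, green where Het 2-cell exceeds Het GV and violet where it does not. On the left, 3 of 4 lines dip at the Het 2-cell stage, and on the right 16 of 24 lines peak there. The genes were sorted by the same Het and KO 2-cell libraries. Every green line on the right thus peaks, and every violet line on the left dips, by the choice of genes.

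In GV oocytes lacking Hira, members moved in both directions. The share of them that was lower was near that of all genes, and the share that was higher was below it. Of 43 tested, 6 were higher in ZH KO oocytes (14.0%; all genes, 25.6%), 11 were lower (25.6%; all genes, 26.3%) and 26 did not pass. A change of at least 2-fold on the log2(FPKM + 1) scale was met by 3 (all genes, 17.7%), and the median was −0.05 against −0.04 over all genes. Scaled to the median gene, the median of all genes became −0.19, and 4 of 43 members were higher (all genes, 20.6%) and 17 lower (all genes, 34.3%). Scaled to the reads of the table it became 0.08, and of 47 members tested 11 were higher (all genes, 30.9%) and 10 lower (all genes, 20.4%). Without ZH KO replicate 3, 10 members were higher.

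The higher members belonged to several roles. Eif1 was at 157.0, 158, 170.0 and 189 FPKM in ZH Het and at 348, 305, 216 and 370.5 in ZH KO oocytes, without overlap (0.85 ± 0.18, limma adjusted p = 0.00326, 1.80-fold). Eif4a1, the cap-complex helicase, was at 12.8, 11.6, 11.9 and 9.26 FPKM in Het and at 15.0, 27.5, 27.0 and 22.2 in KO, also without overlap (0.92 ± 0.20, adjusted p = 0.00368). The elongation members Eef1b2, which reloads eEF1A with GTP (0.82 ± 0.20, from 7.81 to 15.0 FPKM), and Eef1a1, which brings tRNA to the ribosome (0.66 ± 0.14, from 15.9 to 25.7 FPKM), were higher as well. Smaller differences were found for the eIF3 subunits Eif3f (0.45) and Eif3e (0.40). Eif3e (adjusted p = 0.0323) lost its call in 5 of the 8 fits that left out 1 library (0.0634 to 0.0922 by limma), and Eif3f (adjusted p = 0.0159) without ZH Het replicate 3 (0.0507). Neither passed when libraries were scaled to the median gene (limma adjusted p of 0.122 and 0.0850).

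Among the lower members Eef1e1 showed the largest difference. It was at 9.28, 11.5, 12.9 and 10.6 FPKM in ZH Het and at 2.599, 2.19, 4.26 and 1.85 in ZH KO oocytes (−1.73 ± 0.19, limma adjusted p = 0.000114, 3.32-fold lower). Eif4enif1, a partner of eIF4E that carries it to the nucleus and to sites of silenced mRNA, fell from 7.16, 7.78, 5.86 and 5.24 FPKM to 0.991, 2.73, 2.64 and 1.29 (−1.41 ± 0.23, adjusted p = 0.000834); it overlaps Drg1. Eif3d, an eIF3 subunit that can itself bind caps, fell from 6.18 ± 1.09 to 2.14 ± 0.60 FPKM (−1.20 ± 0.17, adjusted p = 0.000441). These were the 3 members past 2-fold, and none of the 3 had overlapping groups, which a choice by size favours.

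Both eIF2B subunits that passed were lower, namely Eif2b4 (−0.99 ± 0.25, from 23.9 to 12.0 FPKM) and Eif2b2 (−0.95 ± 0.20, from 7.82 to 3.66 FPKM). Eif4b, a helper of the helicase (−0.75 ± 0.12, from 2.09 to 0.837 FPKM), and Eif3b (−0.68 ± 0.22, from 1.70 to 0.752 FPKM) were also lower, and both had passed the filter through the Het group alone. Eif3b had overlapping groups and lost its call in 5 of the 8 fits that left out 1 library (limma adjusted p of 0.0585 to 0.0816). The other 3 lower members, Eef2, Eif4e3 and Pabpc4, named after their values were seen, differed by −0.65, −0.45 and −0.36. Pabpc4, a general poly(A)-binding protein (limma adjusted p = 0.0450), had overlapping groups and lost its call in 6 of those 8 fits (0.0543 to 0.127).

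All 3 oocyte-type genes had negative differences in ZH KO oocytes (all genes, 3022 of 5792), and 1 was lower (all genes, 26.3%). Pabpc1l was at 2.31, 2.19, 1.45 and 1.62 FPKM in Het and at 0.432, 0.760, 0.336 and 0.433 in KO oocytes, without overlap (−0.95 ± 0.15, limma adjusted p = 0.000658); it had passed the filter through the Het group alone. Eif4e1b was at 5.67, 5.41, 4.54 and 4.36 FPKM in Het and at 2.74, 5.71, 2.42 and 3.40 in KO (−0.44 ± 0.21, adjusted p = 0.10002, 95% interval −0.90 to 0.02). Cpeb1 was at 3.43, 3.88, 3.18 and 2.70 FPKM in Het and at 1.63, 3.65, 1.96 and 1.71 in KO (−0.44 ± 0.19, adjusted p = 0.0772). In both genes 1 library, ZH KO replicate 2, stood with the Het libraries, and without it Eif4e1b (−0.64, adjusted p = 0.00562) and Cpeb1 (−0.63, adjusted p = 0.00428) passed in limma. That library was picked from these same values, so the fits without it cannot decide whether the genes differ. Both genes also passed when libraries were scaled to the median gene (−0.59 each, limma adjusted p of 0.0426 and 0.0372). The oocyte markers summed to 2501 to 2620 FPKM in Het and to 1622 to 2207 in KO oocytes, with all 12 above 1 FPKM in each library. The 7 listed markers of the 2-cell embryo summed to 73.2 to 108 FPKM in Het and 241 to 376 in KO oocytes, and the 12 listed markers of granulosa, cumulus, stroma and blood cells to 0.427 to 0.734 and 1.09 to 2.44 FPKM, at most 1 of them above 1 FPKM. None of the 3 sums overlapped between the groups. As a share of reads, the oocyte markers did overlap (2.16 to 2.37% in Het, 1.45 to 2.38% in KO). So did those of granulosa, cumulus, stroma and blood cells (0.00396 to 0.00474% against 0.00345 to 0.00828%). The 2-cell markers did not overlap by share either (0.0157 to 0.0219% against 0.0881 to 0.156%). The part of these markers in the members' differences was not tested.

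The general counterparts did not follow. Eif4e differed by 0.25 ± 0.13 (limma adjusted p = 0.131, 95% interval −0.04 to 0.54), and passed when libraries were scaled to the reads of the table (0.40, adjusted p = 0.0315). Pabpc1 was below the filter at 0.082 to 0.269 FPKM (16 to 77 reads) in ZH Het and 0.470 to 0.687 FPKM (91 to 128 reads) in ZH KO oocytes, and in the fit without the filter it was higher (0.36, adjusted p = 0.0109). Eif4ebp1, named after its values were seen, was also below the filter at 28 to 54 reads in Het and 260 to 443 reads in KO, and was higher without the filter (1.05, adjusted p = 0.000659). In that limma fit Eif4g1 (−0.31, adjusted p = 0.0240), Gspt1 (−0.28, adjusted p = 0.0179) and Eif4g3 (−0.06, adjusted p = 0.00626) were lower. They too were named after their values were seen. The other members below the filter did not pass. Over all genes 15.9% were higher and 12.1% lower in that fit.

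In GV oocytes lacking Cabin1 few members moved. Of 46 tested, 3 were higher (all genes, 8.20%), 1 was lower (all genes, 5.73%) and 42 did not pass, and none reached 2-fold (all genes, 2.90%). An unadjusted p under 0.05 in limma was met by 9 of the 46, against 1704 of all 6339 genes. Eif1 was at 272, 302, 255 and 309 FPKM in CabZ Het and at 454, 435, 565 and 477 in CabZ KO oocytes, with no overlap (0.76 ± 0.12, limma adjusted p = 0.00256, 1.69-fold). Eef1a1 rose from 28.1 ± 2.73 to 40.2 ± 3.32 FPKM (0.50 ± 0.11, adjusted p = 0.0131). Eif4a2, a second eIF4A helicase that overlaps Rfc4, was at 12.9 ± 1.43 against 18.7 ± 3.23 FPKM (0.50 ± 0.14, adjusted p = 0.0434), and lost its call in 7 of the 8 fits that left out 1 library (limma adjusted p of 0.0694 to 0.119).

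Eef1e1 was at 18.5, 20.1, 21.3 and 19.6 FPKM in CabZ Het and at 14.9, 13.4, 14.7 and 15.6 in CabZ KO oocytes. The groups did not overlap (−0.41 ± 0.10, limma adjusted p = 0.0169), but without CabZ Het replicate 3 the adjusted p was 0.0510. On the values as deposited neither Eef1e1 (−0.38, limma adjusted p = 0.0651) nor Eef1a1 (0.51, adjusted p = 0.0604) passed. The oocyte-type genes did not pass: Eif4e1b differed by −0.20 (95% interval −0.74 to 0.34), Pabpc1l by −0.30 (−0.65 to 0.06) and Cpeb1 by −0.06 (−0.43 to 0.30), and Eif4e differed by 0.06 (−0.15 to 0.27). The summed oocyte markers overlapped between the groups (3205 to 4388 FPKM in Het, 3201 to 3366 in KO), as did those of granulosa, cumulus, stroma and blood cells (0.723 to 1.16 against 0.811 to 1.32 FPKM). As a share of reads, the latter did not overlap (0.00433 to 0.00578% in Het, 0.00836 to 0.0128% in KO). The 6 listed markers of the 2-cell embryo (138 to 153 FPKM in Het, 217 to 281 in KO) and the share of reads on mitochondrial genes (0.391 to 0.474% against 0.187 to 0.342%) did not overlap. Depth did not overlap either (10706012 to 12469458 reads in Het, 9115892 to 10010598 in KO). The part of these traits in the members' differences was not tested.

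In the parthenotes no member passed. Of 27 tested, 0 were higher (all genes, 0.0932%) and 0 lower (all genes, 1.70%), none was among the genes past 2-fold (all genes, 1.44%), and 6 had an unadjusted p under 0.05 in limma, against 850 of all 4293 genes. Eif1b was nearest, at 139, 132, 162 and 126 FPKM in the GFP libraries and at 212, 268 and 205 in the libraries labelled Zscan4 OE, which did not overlap (0.70 ± 0.16, limma adjusted p = 0.0776). Eif4enif1 was at 1.48 to 2.27 FPKM in GFP and 2.57 to 6.85 in the libraries labelled Zscan4 OE (0.78 ± 0.26, adjusted p = 0.1496). Eif4e1b (0.45 ± 0.19, adjusted p = 0.229) and Eif4e (−0.10 ± 0.16, adjusted p = 0.753) did not pass, and Pabpc1, Pabpc1l and Cpeb1 were below the filter along with 24 other members.

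Eif1 was the member higher in all 3 mutant comparisons: 0.85 in ZH GV, 0.76 in CabZ GV and 1.48 in CabZ 2-cell libraries, and 0.05 among the parthenotes. Eef1e1 was the member lower in all 3 (−1.73, −0.41 and −0.98). Its call in CabZ GV oocytes was lost without CabZ Het replicate 3 (limma adjusted p = 0.0510). It was also lost with the replicate number as a block (limma adjusted p = 0.0607) and on the values as deposited. Eif2b4 and Eef2 were lower both in ZH KO oocytes and in embryos of CabZ KO oocytes, while Eif3e and Eif3f were higher in the former and lower in the latter, and Eif4e3 was lower in the former and higher in the latter. The tables share no libraries, and differences between them were not tested. Calls shared between tables were not counted over all genes, so these overlaps cannot be set against a background.

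The members together took about 1% of the reads in every group. The share was 0.933 ± 0.030% in ZH Het and 1.03 ± 0.068% in ZH KO oocytes, 0.979 ± 0.053% and 1.04 ± 0.018% in CabZ oocytes, and 1.04 ± 0.062% and 1.09 ± 0.043% in the GFP and Zscan4 OE parthenotes. In CabZ 2-cell embryos it was 1.21 ± 0.136% in Het and 1.05 ± 0.062% in KO. Leaving out Eif1, the member with the most reads in the KO embryos, the share was 1.08 ± 0.135% in Het and 0.699 ± 0.053% in KO embryos. The 3 oocyte-type genes took 0.0414% in CabZ Het GV oocytes, 0.00338% in Het 2-cell and 0.00814% in KO 2-cell embryos.

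Other genes of translation and its control, a list of 91 that holds no member, were read in the same fits. In CabZ KO 2-cell embryos 8 of 43 tested were higher (18.6%; all genes, 25.2%), led by the oocyte RNA-binding proteins Dazl (1.88 ± 0.30), Zar1 (1.70 ± 0.34) and Ybx2 (1.08 ± 0.19), and 20 were lower (46.5%; all genes, 30.9%), led by the re-initiation factor Mcts2 (−3.18 ± 0.65), the hypusine enzyme Dhps (−1.97 ± 0.25) and Eef1akmt1, a methyltransferase of eEF1A (−1.77 ± 0.26). In ZH KO oocytes 7 of 39 were higher (17.9%; all genes, 25.6%), led by Mcts2 (1.71 ± 0.19), the scanning factor Eif1a (1.29 ± 0.12) and Dazl (0.93 ± 0.21), and 17 were lower (43.6%; all genes, 26.3%), led by Zar1 (−1.24 ± 0.39), the poly(A) polymerase Papolg (−1.21 ± 0.15) and Pabpn1l, an oocyte-type poly(A)-binding protein (−1.20 ± 0.34). In CabZ KO oocytes 1 of 42 was higher (Mcts2, 1.33 ± 0.32, all genes, 8.20%) and 1 lower (Pabpn1l, −1.43 ± 0.27, all genes, 5.73%). In the parthenotes none of 24 passed (all genes, 0.0932% higher and 1.70% lower). There 5 of the 24 had an unadjusted p under 0.05 in limma, against 850 of all 4293 genes.

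The ATAC-seq peak lists of CabZ GV oocytes showed open chromatin at the starts of some members. A peak summit lay within 500 bp of the start in 8, 14 and 30 of the 54 members in the 3 Het libraries (14.8, 25.9 and 55.6%) and in 12, 4 and 5 members in the 3 KO libraries (22.2, 7.4 and 9.3%). Over 19033 genes of the CabZ GV table the shares were 8.1, 15.1 and 28.2% in Het and 10.9, 3.6 and 4.7% in KO libraries. Of these genes 6339 reached a mean of 1 FPKM in the RNA libraries, against 46 of the 54 members. The part of expression in the members' shares was not tested. The lists held 43399, 67074 and 111327 peaks in Het and 46070, 19160 and 29600 in KO libraries, so the members' counts moved with the length of the list, and the sequencing depth of these libraries was unknown. Of the 54 members, 17 had no such summit in any library and 9 had one in at least 3 of the 6. Recurrence was not counted over all genes. Eif4e1b had one in 5 libraries (3 Het, 2 KO), and the others were Eif2s2, Eif5a and Eef1b2 (4 each) and Eif2s1, Eif2b4, Eif4b, Eef1e1 and Pabpc1l (3 each). Eif1 had a summit in 2 libraries and Eef1a1 in none.

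**Figure D5:**
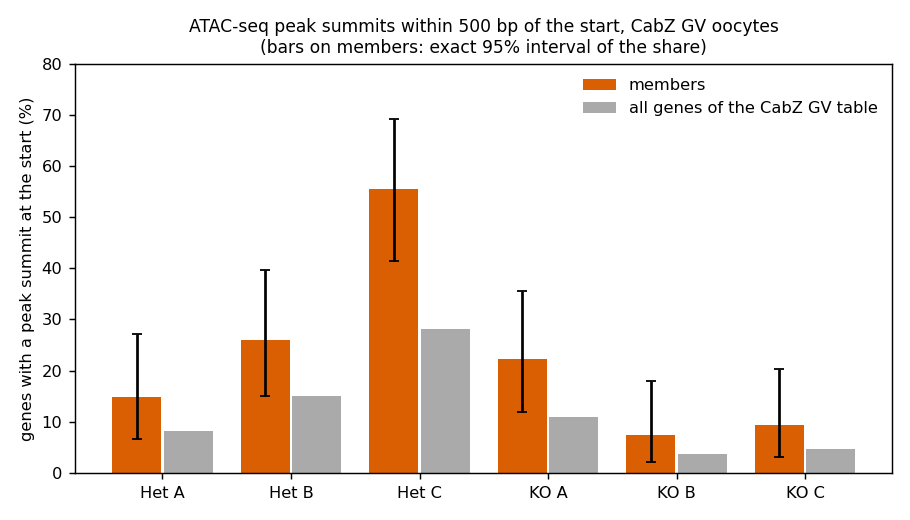
Share of genes (y axis, %) with an ATAC-seq peak summit within 500 bp of the start in each of the 6 CabZ GV libraries, for the 54 members (orange, with the exact 95% binomial interval, which covers counting error only) and all 19033 genes of the CabZ GV table (grey). The orange bar exceeds the grey bar in each library, and both follow the length of the peak list, greatest in Het C (55.6 and 28.2%). A mean of 1 FPKM in the RNA libraries was reached by 46 of the 54 members and 6339 of the 19033 genes.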

How the data were processed

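RNA-seq values were used for 31 libraries in 4 tables and ATAC-seq peaks for 6 libraries. RNA libraries were made with the Smart-seq2 v4 and Nextera XT kits, which do not mark strand. Per the methods, reads were trimmed (TrimGalore), aligned to GRCm38 (STAR, 2.5.3a in the submitters' processing notes) and adjusted in Partek Flow; how reads shared by several genes were counted was not stated. For the ZH oocytes and the parthenotes the authors deposited FPKM per whole gene span, with 0.01 or 0.001 added to each value, as the values show. For both stages of the CabZ line the authors deposited a score, made by dividing reads by the span a second time and bringing each library to one total, again with 0.01 added. The peak lists hold −log10 q values that the authors deposited from MACS2, called per library after Bowtie2 alignment.

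The added constant was subtracted. The scores were multiplied by the span and then divided by the library's sum of score times span squared, which gave FPKM over the span. Reads were estimated from the step that 1 read makes in low values: of the values up to 12 reads, 79.9 to 86.6% per library lay within 0.05 of a whole number. Library totals ranged from 5819242 to 21870834 reads. Exon lengths came from GENCODE M21, whose coordinates matched those of 93.4 to 97.0% of the shared symbols.

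Each table was fitted alone in limma (3.58.1, R 4.3.3) on log2(FPKM + 1) for genes whose mean reached 1 FPKM, using the genotype or injection groups of the labels and Benjamini-Hochberg adjustment over all genes tested. The code was tested on simulated data. Ratios of 2 members were compared with exact permutation tests (scipy 1.17.1). Nothing in the labels says that replicates came from separate animals, so p-values measure the spread between pooled libraries. The text names the 3 oocyte-type genes with Eif4e and Pabpc1 in every table, the members that passed (up to 8 in each direction by size, and all past 2-fold), up to 3 genes each way of a list of other translation genes, and otherwise role groups. Members and lists were chosen with earlier results of these data known.

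Alternatives were another pseudocount, no filter or a mean of at least 5, other scalings, a replicate block and leaving out each library; for peaks, a −log10 q of at least 5 and a 1000 bp window. Of the 54 members, 30 overlap another gene in GENCODE M21, 10 of them a coding gene, and their reads cannot be told apart.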

Additional observations from a re-analysis of the deposited data

Results flagged for a closer look

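In 4 of 103 groups of 4 libraries, 1 library stood far from the other 3 for a member named throughout or with the largest differences; by chance about 1 in 20 groups would. Cpeb1 was at 3.65 FPKM in ZH KO oocyte replicate 2, against 1.63, 1.71 and 1.96 in the other ZH KO libraries. Pabpc1 was at 0.687 FPKM in ZH KO oocyte replicate 3, against 0.470, 0.473 and 0.478. Pabpc1l was at 0.0725 FPKM in CabZ Het 2-cell replicate 4, against 0.0201, 0.0250 and 0.0251, which are 4 to 15 reads in all. Eif1 was at 1879 FPKM in CabZ KO 2-cell replicate 4, against 1479, 1500.3 and 1509.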

How the results depend on the processing

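Across the alternatives, 585 values of named members kept their direction and side of the threshold, 32 lost their call, 6 gained one and 2 reversed. The reversed ones did not pass in any fit: leaving out 1 library, Cpeb1 in CabZ GV oocytes ran from −0.19 to 0.044 (above 0 without CabZ KO replicate 3) and Eif4e in the parthenotes from −0.17 to 0.0003 (above 0 without Zscan4 OE replicate B). The cause was not tested for any change below. Scaling to the reads of the table gave 11 higher members in ZH KO oocytes, and median scaling gave 17 lower ones. With a mean of at least 5 FPKM, which leaves fewer genes, the lower members numbered 3 for ZH oocytes and 13 for CabZ embryos. On the deposited values there were 1 higher and 0 lower members in CabZ KO oocytes, and 6 lower in CabZ KO embryos. Leaving out 1 library gave 4 to 10 higher members for ZH oocytes and 0 to 1 lower for CabZ oocytes. Without Eif1 the share of reads on the members in CabZ KO embryos differed by −0.38 percentage points instead of −0.16. With a −log10 q of at least 5, the members with a peak at the start numbered 0, 1 and 13 in the Het libraries A, B and C and 3, 0 and 0 in the KO libraries; within 1000 bp Het C had 43.

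Replicate numbers were shared between groups, but same-numbered libraries did not deviate together: their correlations ran from −0.41 to 0.40 in ZH GV, −0.18 to 0.14 in CabZ GV, −0.05 to 0.13 in CabZ 2-cell and −0.16 to 0.15 in parthenote libraries. With the replicate number as a block, the higher and lower members numbered 6 and 11 for ZH oocytes, 3 and 0 for CabZ oocytes, 4 and 24 for CabZ embryos, and 0 and 0 for the parthenotes. In both oocyte tables some of the members behind these counts changed. By limma adjusted p, Eif3e (0.0553) and Pabpc4 (0.0539) lost their calls in ZH oocytes and Eif3k (0.0459) and Cpeb1 (0.0467) gained one, and in CabZ oocytes Eif4a2 (0.0664) and Eef1e1 (0.0607) lost theirs and Eif4a1 (0.0384) gained one. At 5819242 to 6330215 reads in the KO embryos, 12 members stayed below the filter, and Pabpc1l could not be compared there.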
